A study of Mus musculus with 20 samples.

Results

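The variable (V) segments of the T-cell receptor beta chain were followed as one family through CD8+ T cells taken from mouse tumours in an experiment with checkpoint antibodies. The family was every gene symbol beginning with Trbv, which gave 35 of the 45777 symbols in the deposited expression table. CD8+ T cells that had entered the tumour were sorted on day 4 after treatment, and their RNA was sequenced after full-length cDNA amplification with SMART-Seq v4, a kit for very few cells. The tumour line was MC38, from a mouse colon carcinoma, here with overexpressed human PD-L1 (MC38-hPD-L1). The hosts of all 4 groups, Control included, were mice of the C57BL/6 strain with the human forms hPD-1, hPD-L1 and h4-1BB. Animals were randomised at a mean tumour volume of 150 to 200 mm3, and there were 5 libraries each of Control, Pembrolizumab, ABL503 and Combination (ABL503 with pembrolizumab). Pembrolizumab blocks PD-1, an inhibitory receptor of T cells. ABL503 is bispecific, with 1 arm against PD-L1 and 1 against the costimulatory receptor 4-1BB. The labels used here give neither doses nor animal ages, nor what the Control animals received, nor how many cells entered a library.

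Each alpha-beta T cell builds its beta chain by joining 1 V segment to a diversity (D) and a joining (J) segment, and the joined exon is spliced to a constant segment, Trbc1 or Trbc2. All daughters of that cell keep the same V segment, so a clone that grows adds RNA of a single V segment to the pool. A diverse T-cell population uses many V segments, while a population held by few clones is read mostly from few. A V segment is shared by many clones, and transcript levels per segment do not resolve clones.

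All 35 symbols were found in the GENCODE M21 annotation of GRCm38, on chromosome 6. GENCODE classes 22 as V genes and 13 as pseudogenes. Of the 35 symbols, 30 were above 0 in at least 1 library and 19 in every library, while Trbv6, Trbv11, Trbv12-3, Trbv27 and Trbv28 were at 0 throughout. The filter used for testing, at least 1 FPKM in at least 5 libraries, was passed by 22 segments: 21 of the V genes and 1 pseudogene, Trbv24. FPKM counts fragments scaled by gene length and by library size. The 13 symbols under the filter never exceeded 1.68 FPKM or 0.129% of the family. Trbv24 reached 11.7 FPKM. RefSeq differs for 2 genes, classing Trbv24 as a V segment and Trbv29 as a pseudogene, and Trbv29 was measured in every library at 12.2 to 129 FPKM.

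A segment led a library when it had the largest share of the summed Trbv FPKM, and 8 segments led at least 1 of the 20 libraries. The last 48 bases of their germline V exons are shown because this stretch holds the cysteine codon after which the junction with D and J begins, and because it separates the leaders from each other. Sequences were read from GRCm38 at the GENCODE M21 exons, 5′ to 3′ on the plus strand, and capitals mark every cysteine codon in frame.
Trbv12-2: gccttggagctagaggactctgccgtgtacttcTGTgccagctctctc
Trbv19: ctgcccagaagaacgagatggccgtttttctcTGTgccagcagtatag
Trbv3: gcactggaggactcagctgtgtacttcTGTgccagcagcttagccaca
Trbv13-1: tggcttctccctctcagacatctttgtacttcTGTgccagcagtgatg
Trbv17: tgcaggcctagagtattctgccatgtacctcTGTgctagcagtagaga
Trbv4: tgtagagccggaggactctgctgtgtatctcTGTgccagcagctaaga
Trbv12-1: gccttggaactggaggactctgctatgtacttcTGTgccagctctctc
Trbv1: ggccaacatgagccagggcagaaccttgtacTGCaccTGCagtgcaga

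The V exons of these leaders lie at chr6:41119072-41119364 (Trbv12-2), chr6:41178746-41179048 (Trbv19), chr6:41048527-41048828 (Trbv3), chr6:41116175-41116468 (Trbv13-1), chr6:41163262-41163556 (Trbv17), chr6:41059592-41059886 (Trbv4), chr6:41113775-41114067 (Trbv12-1) and chr6:40891591-40891885 (Trbv1). The 2 segments that reached the largest shares of any library, Trbv13-1 and Trbv17, are shown over the whole V exon, with the same use of capitals.
Trbv13-1: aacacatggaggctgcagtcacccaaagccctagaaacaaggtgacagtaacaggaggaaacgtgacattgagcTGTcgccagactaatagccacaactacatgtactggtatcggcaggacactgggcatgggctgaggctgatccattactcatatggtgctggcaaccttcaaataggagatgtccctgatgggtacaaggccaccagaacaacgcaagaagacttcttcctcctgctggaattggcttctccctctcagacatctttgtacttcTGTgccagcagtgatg
Trbv17: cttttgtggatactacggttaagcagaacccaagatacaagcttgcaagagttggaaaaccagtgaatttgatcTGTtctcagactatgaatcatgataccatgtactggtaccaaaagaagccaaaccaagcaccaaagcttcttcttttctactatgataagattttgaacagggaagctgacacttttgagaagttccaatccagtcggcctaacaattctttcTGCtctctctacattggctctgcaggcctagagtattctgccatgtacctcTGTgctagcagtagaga

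Some members are near copies of each other, which bears on how reads are shared between them. Over the 210 pairs of the 21 V exons read, the median identity was 56.6%. It was 91.8% between Trbv13-2 and Trbv13-3, 89.1% between Trbv12-1 and Trbv12-2, 88.8% between Trbv13-1 and Trbv13-2 and 86.1% between Trbv13-1 and Trbv13-3. The longest run of identical bases was 50 for the first of these pairs and 44 for the second. The read length and the treatment of reads that match several copies are not given in the sources used here, so values of these 5 segments are uncertain with respect to each other. Trbv17, Trbv19, Trbv1, Trbv3 and Trbv4 were in none of the 4 closest pairs.

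The libraries carried the markers of sorted CD8 T cells. The summed FPKM of 8 CD8 T-cell genes was 7530 to 11197, and Cd4 was at most 0.630 FPKM. The 5 gamma-delta T-cell genes in the table summed to 2.96 to 66.2 FPKM in 19 libraries and to 227 in Combination 3, with Sox13 at 0 in every library. Column sums of the table ran from 575918 to 654333. Sequencing depth is unknown, so no counting interval can be given, and the error of each value is the spread between the 5 libraries. Whether each library is a separate animal is not in the labels, so the p-values refer to the spread between samples, which may be technical. Values are listed below in the order of replicates 1 to 5.

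No single segment led a whole group, and the leaders of the Combination differed from those most often seen elsewhere. Trbv12-2 or Trbv19 led 11 of the 15 libraries of the other 3 groups and 0 of the 5 Combination libraries. Both segments were picked for leading most often in those 15 libraries, so part of this contrast is built in. In Control the leaders were Trbv12-2, Trbv12-2, Trbv1, Trbv3 and Trbv19, with 33.3, 36.1, 17.7, 30.1 and 27.7% of the summed Trbv FPKM. In Pembrolizumab they were Trbv19, Trbv12-2, Trbv12-1, Trbv19 and Trbv19, with 23.3, 36.8, 44.2, 25.7 and 24.7%. The ABL503 libraries were led by Trbv19, Trbv12-2, Trbv19, Trbv12-2 and Trbv3, with 35.8, 29.4, 29.2, 37.8 and 25.2%. In these groups the first segment thus held less than 50% of the family in every library. The Combination libraries were led by Trbv13-1, Trbv13-1, Trbv4, Trbv3 and Trbv17, with 54.0, 71.3, 30.8, 46.2 and 89.7%. A single segment held over 50% of the family in 3 libraries, all of the Combination, while the leading share of Combination 3 lay within the range of the other groups.

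**Figure D1:**
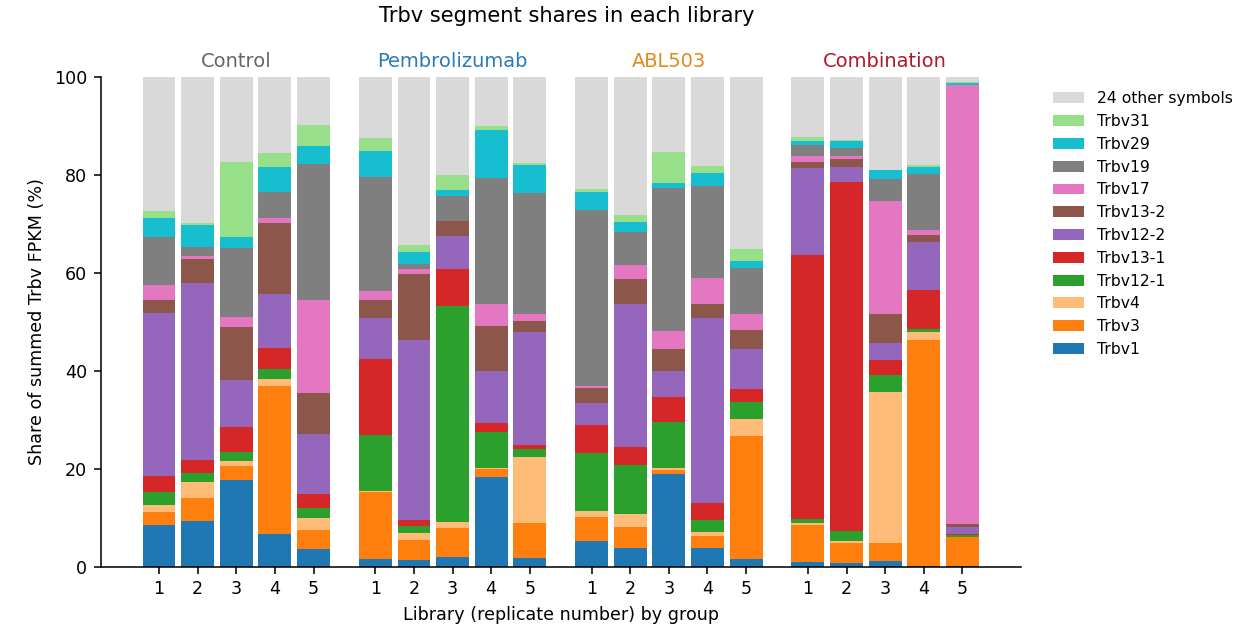
Share of each Trbv segment in the summed Trbv FPKM (y axis, %) for the 20 libraries (x axis, replicate number within group), with the 11 segments described individually in colour and the other 24 symbols in grey. Trbv17 takes 89.7% of Combination 5, and Trbv13-1 takes 54.0% and 71.3% of Combination 1 and 2.

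The leading share averaged 29.0 ± 7.05% in Control and 30.9 ± 9.16% and 31.5 ± 5.22% in Pembrolizumab and ABL503, but 58.4 ± 22.8% in the Combination (SD, n = 5 each, as for every mean here). The Combination ranged from 30.8% to 89.7%, and its lowest library lay inside the Control range of 17.7% to 36.1%. Since this is a score over the family, only means, spread and overlap are given, with no test.

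Evenness gave the same picture with a clearer separation from Control. It is the Shannon entropy of the shares divided by the natural logarithm of 30, the number of symbols above 0 in any library, so 1 means equal shares and 0 a single segment. Control libraries had 0.720, 0.683, 0.734, 0.698 and 0.685. Pembrolizumab libraries had 0.700, 0.593, 0.610, 0.674 and 0.664, and ABL503 libraries 0.684, 0.721, 0.679, 0.656 and 0.740. The Combination libraries had 0.498, 0.389, 0.665, 0.559 and 0.147. All 5 Combination libraries were below all 5 Control libraries, and 4 of 5 were below every Pembrolizumab and ABL503 library, Combination 3 being the exception. Combination and Control stayed apart in 8 of 9 ways of computing evenness, the reported one included. They overlapped when FPKM was multiplied by exon length (Combination up to 0.666, Control from 0.647). Ways that only leave out symbols with very low values mainly rescale all libraries by a common divisor, so they could hardly make the groups overlap. The Combination mean was 0.451 ± 0.197, against 0.704 ± 0.022 in Control, 0.648 ± 0.045 in Pembrolizumab and 0.696 ± 0.034 in ABL503. The difference of the Combination from Control, -0.252, ranged from -0.306 to -0.176 when 1 library was left out, the smallest being without Combination 5. The SD of the Combination was the largest of the 4, so its libraries also differed from each other more than those of any other group.

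**Figure D2:**
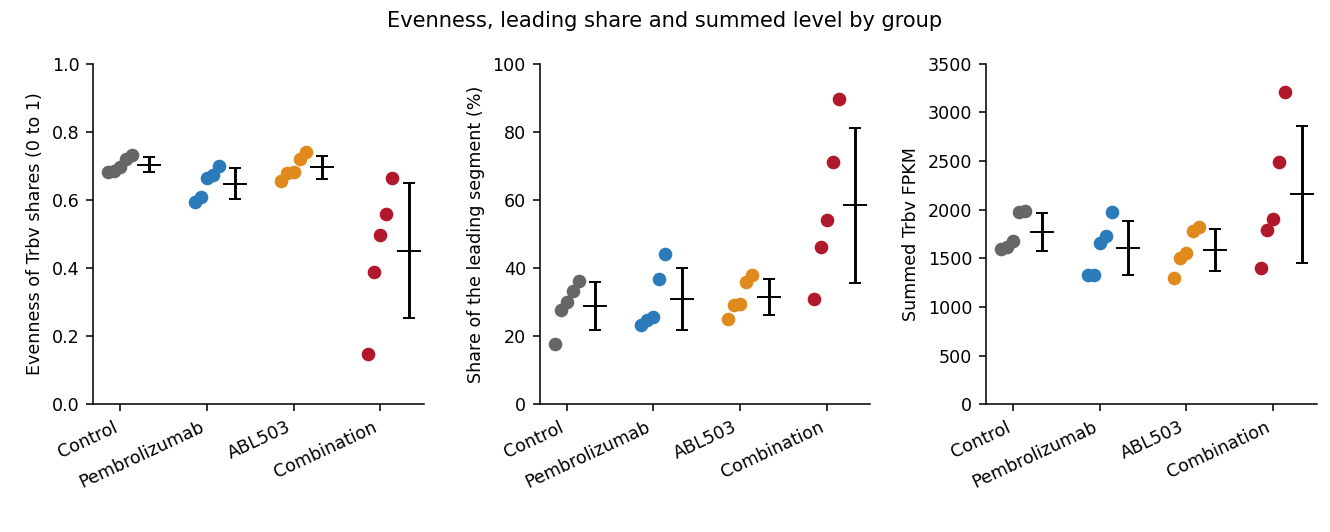
Evenness of the Trbv shares, share of the leading segment (%) and summed Trbv FPKM (y axes) for each library (points) by group, with the mean and SD (n = 5) beside the points. Combination libraries lie from 0.147 to 0.665 in evenness and Control libraries from 0.683 to 0.734, while the summed levels overlap.

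Put as an effective number of segments, the exponential of the entropy, Control libraries used 11.0 ± 0.839 segments, Pembrolizumab 9.16 ± 1.38, ABL503 10.7 ± 1.25 and the Combination 5.42 ± 3.0. The Combination libraries stood at 5.44, 3.75, 9.59, 6.68 and 1.65. Combination 5 was close to a single segment, and only 3 of its segments reached 1% of the family. Segments at 1% or more averaged 15.2 (Control), 13.8 (Pembrolizumab), 15.4 (ABL503) and 9.8 (Combination).

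The summed level of the family overlapped between the groups. Summed Trbv FPKM was 1592, 1974, 1985, 1676 and 1619 in Control and 2486, 1401, 1792, 1909 and 3208 in the Combination. The Combination mean was 2159 ± 703, against 1769 ± 194 in Control, 1604 ± 278 in Pembrolizumab and 1590.2 ± 215 in ABL503. With the leader taken out, the rest of the family summed to 1143, 402, 1240.3, 1028 and 332 FPKM in the Combination, against 1259 ± 220 in Control. Combination 2 and 5, with the largest leading shares, had the lowest remainder. In bulk samples fewer cells that use a segment and less of its RNA per cell cannot be told apart, and shares add up to 100% by construction.

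Of the 4 segments that led Combination libraries, Trbv13-1, Trbv17 and Trbv4 led no library of another group, and Trbv3 led 1 of Control and 1 of ABL503. Leaders seen in a single group were not particular to the Combination, since Trbv1 led only Control 3 and Trbv12-1 only Pembrolizumab 3. Trbv13-1, a member of the Trbv13 trio of near copies, stood at 1344, 999, 53.5, 153 and 8.47 FPKM in the Combination and at 51.8, 53.0, 104, 72.2 and 45.8 in Control. It was high in Combination 1 and 2, and Combination 5 lay below all Control libraries. Pembrolizumab libraries had 267, 22.4, 124, 23.7 and 10.8 and ABL503 libraries 101, 47.3, 93.3, 51.7 and 37.6. Outside the Combination its highest share was 15.4%, in Pembrolizumab 1. The group difference from Control on the log2(FPKM + 1) scale, 1.34 (SE 1.01, adjusted p = 0.40) by limma with Benjamini-Hochberg adjustment over all tested genes, did not pass the threshold of 0.05.

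Trbv17 was carried by 2 libraries. Its levels were 34.0, 9.02, 415, 18.2 and 2876 FPKM in the Combination and 48.6, 12.4, 39.9, 19.7 and 306 in Control. Combination 5 at 2876 FPKM held the highest value of any Trbv segment in any library, and Combination 3 had Trbv17 as its second segment with 23.2% of the family. In Control only replicate 5 stood out, at 18.9%. Pembrolizumab had 33.0, 16.7, 2.09, 60.0 and 19.4 and ABL503 7.45, 35.3, 65.8, 82.4 and 47.9. The Combination and Control overlapped, with a difference of 1.11 (SE 1.22, adjusted p = 0.58).

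Trbv3 and Trbv4, neighbours at the 5′ side of the cluster, each led 1 Combination library. Trbv3 stood at 188, 59.1, 66.0, 881 and 191 FPKM in the Combination, 42.3, 94.3, 56.6, 504 and 64.7 in Control, 234, 82.2, 98.4, 21.9 and 93.9 in Pembrolizumab and 87.3, 55.5, 15.1, 38.3 and 378 in ABL503. A single library in each of Control, ABL503 and the Combination was far above the rest of its group, so a high Trbv3 library was seen in Control too. The difference between the Combination and Control was 0.81 (SE 0.83, adjusted p = 0.55). Trbv4 had 9.40, 4.62, 552, 27.6 and 2.42 FPKM in the Combination and 23.1, 63.8, 18.8, 25.4 and 38.7 in Control. Combination 3 was above every other library for Trbv4, while Combination 1, 2 and 5 were below every Control library, and the difference was -0.67 (SE 1.06, adjusted p = 0.71). Trbv4 was otherwise high only in Pembrolizumab 5, where the group had 6.33, 26.1, 21.3, 3.09 and 179.7, and ABL503 had 20.2, 32.3, 9.10, 13.7 and 51.3.

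J segments and constant segments were read as a measure that the choice of V leaders did not use. The J segments of the first cluster lie before Trbc1 and those of the second between Trbc1 and Trbc2, so a beta chain that uses the second cluster is spliced to Trbc2. J segments are very short, so their FPKM scale is less certain than that of V or constant segments. The share of the leading J segment in the summed Trbj FPKM was 20.2, 24.4, 36.2, 26.0 and 35.8% in Control and 45.7, 33.3, 58.2, 30.1 and 62.3% in the Combination. It averaged 45.9 ± 14.4% in the Combination, and 28.5 ± 7.17%, 28.2 ± 3.67% and 28.0 ± 8.10% in Control, Pembrolizumab and ABL503. Combination 1, 3 and 5 were above every library of the other groups, while Combination 2 and 4 lay inside their range. Evenness of the J shares averaged 0.678 in the Combination, and 0.818, 0.814 and 0.815 in the other groups in that order. The Combination ranged from 0.560 to 0.814 and overlapped each of them (Control from 0.735 to 0.891).

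The library with the most uneven V shares also had the most uneven J shares, but other Combination libraries did not keep this order. Combination 3 had the most even V shares of the group (evenness 0.665) with a J evenness of 0.634. Combination 4 had 0.559 for V and 0.814 for J. In Combination 5, led by Trbv17, Trbj1-1 held 62.3% of the J total at 1802 FPKM, and Trbc1 held 63.0% of the summed Trbc FPKM, against 32.4, 36.6, 35.8, 40.5 and 30.8% in Control. In Combination 3, led by Trbv4 with Trbv17 second, Trbj2-7 held 58.2%. The 2 libraries led by Trbv13-1 had different leading J segments, Trbj2-7 at 45.7% in Combination 1 and Trbj2-5 at 33.3% in Combination 2. In Combination 4, led by Trbv3, the leading J segment was Trbj1-2 at 30.1%, and Trbc1 held 56.5% of the summed Trbc FPKM. Trbc1 held 28.2, 43.9 and 31.3% in Combination 1, 2 and 3, and outside the Combination up to 47.9%, in Pembrolizumab 3. The table gives V and J levels separately, so which V was joined to which J was not measured.

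**Figure D3:**
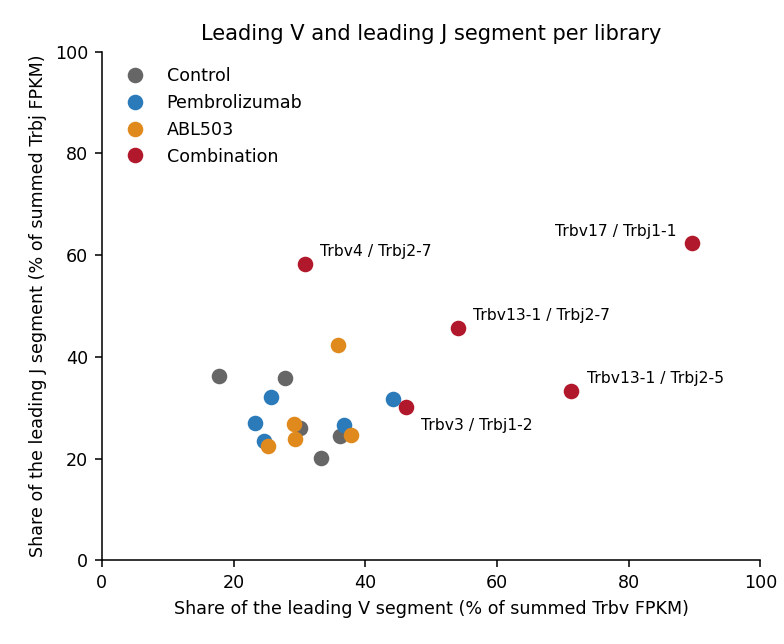
Share of the leading V segment (x axis, % of summed Trbv FPKM) against the share of the leading J segment (y axis, % of summed Trbj FPKM) in each of the 20 libraries, with the leading V and J segments named for the Combination. Combination 5, with Trbv17 at 89.7% and Trbj1-1 at 62.3%, lies farthest from the other groups.

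The segments that passed the test between the Combination and Control were all lower in the Combination. This was 4 of 22 tested members (18.2%), beside 12.6% of all 11794 tested genes that passed in either direction and 6.24% that passed as lower. The median change of the 22 was -0.78, beside -0.036 for all tested genes, and 18 of the 22 estimates were below 0.

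Trbv1, the V segment at the 5′ end of the cluster, showed the largest fall. It stood at 22.9, 9.73, 22.7, 4.73 and 4.05 FPKM in the Combination and 136, 184, 352, 114 and 57.6 in Control. Pembrolizumab had 28.7, 26.2, 31.5, 242 and 24.2, and ABL503 had 94.9, 50.3, 344, 58.3 and 23.6. All Combination libraries were below all 15 others, although the highest, Combination 1, came close to the lowest of ABL503 and Pembrolizumab. Trbv1 fell by 3.68 on the log2(FPKM + 1) scale against Control (SE 0.69, limma adjusted p = 0.0018), and this held when any 1 library was left out. In Pembrolizumab the change of Trbv1 against Control, -1.71 (SE 0.69, adjusted p = 0.16), did not pass. Of all tested genes, 4.43% had every Combination library below every Control library, as Trbv1 and Trbv29 did. For the same order against Pembrolizumab and against ABL503, which Trbv1 alone of the tested segments showed, the shares were 1.17% and 2.74%.

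Trbv29 stood at 21.7, 19.8, 31.8, 27.4 and 12.2 FPKM in the Combination and 61.9, 85.7, 44.1, 85.0 and 61.2 in Control. The groups did not overlap, and the change of -1.56 (SE 0.39, adjusted p = 0.012) passed without any 1 library. In Pembrolizumab it had 92.6, 46.5, 21.3, 129 and 75.3, and in ABL503 66.2, 25.9, 21.5, 41.6 and 20.8, both overlapping the Combination.

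Trbv31, the only segment on the minus strand and the only one beyond the constant segments, stood at 22.4, 2.30, 2.92, 7.76 and 2.10 FPKM in the Combination and 21.7, 10.6, 305, 46.9 and 70.0 in Control. Combination 1 overlapped Control, and the other 4 libraries lay below it. Pembrolizumab had 45.0, 29.7, 49.3, 10.4 and 4.97, and ABL503 10.9, 17.9, 116, 24.3 and 36.2. The change was -3.01 (SE 0.80, adjusted p = 0.018). It missed the threshold at an adjusted p of 0.0505 without Combination 2.

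Trbv13-2 stood at 29.8, 22.0, 105, 30.0 and 22.6 FPKM in the Combination and 43.7, 97.1, 217, 242 and 135 in Control. Combination 3 overlapped Control, while the other 4 libraries were below it. Pembrolizumab had 63.0, 269, 48.3, 122 and 29.9, and ABL503 54.1, 66.1, 81.5, 45.5 and 60.1. The change of -1.83 (SE 0.52, adjusted p = 0.025) was lost without Control 3, Control 4, Combination 2 or Combination 5 (adjusted p up to 0.067). With no filter on low values, the changes of Trbv13-2 and Trbv31 had adjusted p of 0.088 and 0.069, which left 2 segments.

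Trbv13-2, Trbv29 and Trbv1 are the beta segments best known from the receptors of invariant natural killer T (NKT) cells, and all of them are also used by conventional T cells. Zbtb16, the transcription factor that defines NKT cells, was at or near 0 in every library, with at most 0.116 FPKM. Over the 5 NKT and NK markers, the summed level was 8.19 to 15.3 FPKM in Control and 7.49 to 15.0 in the Combination. Most of this sum was Eomes, at 6.78 to 13.9 FPKM in Control and 6.66 to 14.8 in the Combination. Zbtb16, Ncr1 and Klra8 were at 0 in every Combination library and reached 0.116, 0.578 and 0.641 FPKM in Control. Klrb1c stood at 0.178 to 1.98 FPKM in Control and 0.205 to 0.823 in the Combination. Of the 6 lists of other cells, 2 did not overlap between these groups. The 13 myeloid markers summed to 145 to 440 FPKM in Control and 47.9 to 82.8 in the Combination, and the 6 B-cell and plasma-cell markers to 35.5 to 92.9 and 16.9 to 29.8. The part of any of these cells, NKT cells included, in the lower V segments was not tested.

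**Figure D4:**
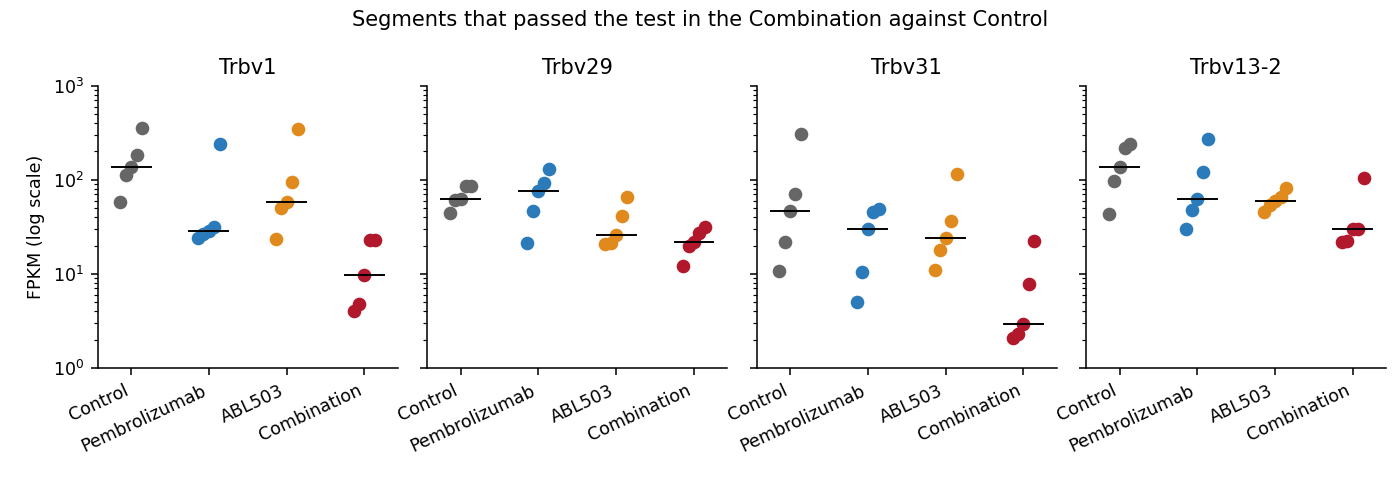
FPKM (y axis, log scale) of Trbv1, Trbv29, Trbv31 and Trbv13-2 in each library (points) by group (x axis), with the group median as a line. All Combination points for Trbv1 lie at 22.9 FPKM or lower, below every other library, whereas 1 Combination library overlaps Control for Trbv31 and for Trbv13-2.

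The segments that most often led the other groups did not pass the test. Trbv12-2 averaged 20.5% of the family in Control, 17.2% in Pembrolizumab and 17.1% in ABL503, against 7.03% in the Combination. It stood at 531, 713, 189, 186 and 200.0 FPKM in Control and 439, 42.4, 62.2, 184 and 43.9 in the Combination. Levels were 144, 726, 114, 141 and 308 in Pembrolizumab and 81.2, 381, 98.1, 589 and 123 in ABL503. Each group had high and low libraries, and all 4 overlapped. The difference between the Combination and Control was -1.62 (SE 0.68, adjusted p = 0.12).

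Trbv19 averaged 3.96% in the Combination, against 11.7% in Control, 16.0% in Pembrolizumab and 20.02% in ABL503. It stood at 403, 22.7, 83.8, 341 and 328 FPKM in Pembrolizumab, 637, 88.8, 531, 291 and 143 in ABL503, 156, 37.2, 278, 88.2 and 449 in Control and 52.0, 22.7, 80.4, 220.0 and 2.68 in the Combination. Combination 5 had the lowest value of any library, and the groups overlapped. The Combination differed from Control by -1.93 (SE 0.95, adjusted p = 0.19).

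Trbv12-1, the near copy of Trbv12-2, was steady in Control and spread widely with single agents. Control libraries had 41.7, 35.8, 35.8, 32.8 and 33.4 FPKM, Pembrolizumab 197, 30.7, 735, 96.7 and 21.3, ABL503 211, 130.0, 169.7, 39.6 and 53.5 and the Combination 22.1, 29.7, 62.9, 14.5 and 8.58. Pembrolizumab 3, where it led with 44.2%, was the highest, and Pembrolizumab 5 and 2 were below all Control libraries. Its differences from Control were 1.45 (SE 0.71, adjusted p = 0.26) in Pembrolizumab and 1.46 (SE 0.71, adjusted p = 0.46) in ABL503, and neither passed.

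The 11 segments described so far held 64.9% to 99.0% of the family in a library (median 82.3%). The other 11 tested segments, Trbv2, Trbv5, Trbv13-3, Trbv14, Trbv15, Trbv16, Trbv20, Trbv23, Trbv24, Trbv26 and Trbv30, held 1.04% to 35.1% together. The highest single share among them was 22.0%, of Trbv15 in Pembrolizumab 2. None of them passed in any comparison. Trbv2 had every ABL503 library (39.9, 62.7, 37.0, 84.2 and 36.3 FPKM) above every Pembrolizumab library (8.75, 4.30, 33.4, 22.4 and 17.2), an order that 2.55% of all tested genes showed, with a difference of 1.74 (SE 0.72, adjusted p = 0.28).

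Single agents did not move any tested segment past the threshold. For Pembrolizumab against Control limma called 0 of 22 segments (3 at an unadjusted p under 0.05), beside 5.55% of all tested genes. ABL503 against Control gave 0 of 22 (2 unadjusted), beside 0.619%. For the Combination against Pembrolizumab the count was 0 (7 unadjusted), beside 0.161%, and for ABL503 against Pembrolizumab 0 (2 unadjusted), beside 1.28%. The Combination against ABL503 gave 1, Trbv1, which was lower with a change of -2.76 (SE 0.69, adjusted p = 0.025), beside 4.53% of all tested genes and 2.24% that were lower. That call was lost without ABL503 3, Combination 2, Combination 4 or Combination 5 (adjusted p up to 0.070), without the filter (0.095) and with the Trbc level as a covariate (0.28). The interaction, the Combination effect over ABL503 minus the Pembrolizumab effect over Control, called 0 (3 unadjusted), beside 0.203%. All these percentages are at the adjusted threshold. At an unadjusted p under 0.05, the 11794 tested genes gave 2383 for Pembrolizumab and 1292 for ABL503 against Control. They gave 1552 for the Combination and 1596 for ABL503 against Pembrolizumab, and 1210 for the interaction. These comparisons share groups and are not independent of each other.

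Levels of V segments spread far more widely within groups than those of most genes. The SD between libraries within groups, on the log2(FPKM + 1) scale, had a median of 1.34 over the 22 segments and of 0.27 over all tested genes. It ran from 0.68 for Trbv29 to 2.18 for Trbv17. Trbv29, with the lowest SD of the family, still had a larger SD than 96.0% of all tested genes, and 11 of the 22 segments were among the 1% with the largest. Within groups the median SD of the segments was 0.97 (Control), 1.31 (Pembrolizumab), 1.26 (ABL503) and 1.49 (Combination). The same median over all genes was 0.23 to 0.27, so the excess was present in Control too.

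**Figure D5:**
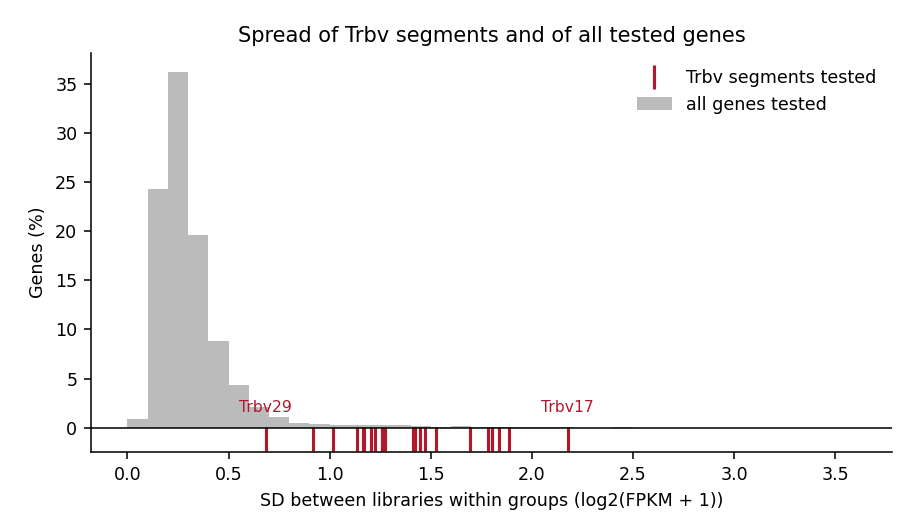
Distribution over all 11794 tested genes of the SD between libraries within groups (x axis, log2(FPKM + 1) scale; y axis, % of genes), with the 22 tested Trbv segments as ticks. The segments run from 0.68 (Trbv29) to 2.18 (Trbv17), right of most genes, whose median is 0.27.

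By the median overlap of their V shares, libraries of the Combination resembled each other least. The shared percent of a pair of libraries, the sum over segments of the smaller of the 2 shares, had a median over 10 pairs of 27.0% in the Combination, against 55.4% in Control, 42.3% in Pembrolizumab and 51.7% in ABL503. Among Combination pairs it ran from 9.23% to 72.7%. The range was 48.1% to 76.7% in Control, 29.0% to 62.6% in Pembrolizumab and 47.7% to 72.9% in ABL503. Where different segments lead, a large leading share limits what a pair can share, so this measure is not independent of evenness. Pairs of a Control and a Combination library shared 33.9% (median of 25). Over all genes the median correlation of a library with the others of its group was 0.964 to 0.975, the Combination included.

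The receptor's other genes were described from a list and a small panel. Of 35 listed genes for D, J and constant segments, the CD3 and CD8 chains, proximal kinases and adaptors, and the recombination enzymes, 32 were tested. Between the Combination and Control 1 was higher and 2 were lower (9.38% of the 32, beside 12.6% of all tested genes). Cd8a, the CD8 alpha chain, changed by 0.43 (SE 0.11, adjusted p = 0.013) and the J segment Trbj2-3 by -1.82 (SE 0.48, adjusted p = 0.017). In Pembrolizumab against Control only the D segment Trbd2 passed by limma, at 1.70 (SE 0.43, adjusted p = 0.023). The other 5 comparisons gave 0, with 0 to 8 of the 32 at an unadjusted p under 0.05. Of all 11794 tested genes, 1210 to 2411 were under that unadjusted p in these 5 comparisons. Among the constant segments, Trbc1 stood at 1515 ± 320.0 FPKM in Control and 2097 ± 1021 in the Combination, Trbc2 at 2747 ± 154 and 2489 ± 577, and Trac of the alpha chain at 1343 ± 112 and 1365 ± 329.5. The CD3 chains that carry the receptor's signal stood at 848 ± 154 and 995 ± 126 FPKM (Cd3d), 248 ± 51.7 and 275 ± 34.3 (Cd3e), 1398 ± 364 and 1805 ± 224 (Cd3g), and 66.3 ± 8.37 and 79.6 ± 16.0 (Cd247). Cd8a stood at 279 ± 46.7 and 377 ± 61.0, and its partner Cd8b1 at 583 ± 149 and 616 ± 159.8. Of this panel, Cd8a was the only gene past the threshold between the groups.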

How the data were processed

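RNA of 20 libraries (4 groups of 5, by the treatment label) was analysed. The submitters' processing notes name HISAT2 (an aligner), StringTie (a quantifier) and the build GRCm38 (mm10). Versions, annotation release and read length are not given in the sources used here. The authors deposited 1 value per symbol, taken here as FPKM: the table names no unit, and the values are not whole and sum differently per library. Depth is unknown.

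Shares, evenness and leading segments were computed with Python 3.11.15. limma 3.58.1 (R 4.3.3) was fitted to log2(FPKM + 1) of the 11794 genes that reached 1 FPKM in 5 or more libraries, with 1 mean per group, 16 residual degrees of freedom and an intensity trend. The 7 two-sided comparisons were adjusted by Benjamini-Hochberg over all tested genes, with a threshold of 0.05. Scores over the family were not tested. The values of 1 other gene past the threshold are not reported here. Segments were described individually when their mean share was at least 5%, they led a library or they passed a test. On data simulated for the Combination against Control, 57.8% of 64 genes changed 1.5-fold, 94.2% of 69 changed 2-fold and 98.5% of 67 changed 4-fold were found again, beside 10 false calls over 11794 genes. The changed genes held no V segment, so these rates do not describe recovery in the family, whose spread was larger. Alternatives changed the segments entered, filter, scaling, length, weights, covariate, block and libraries. Members and lists were chosen with earlier results of these data known. Positions and sequences came from GENCODE M21 (GRCm38).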

Additional observations from a re-analysis of the deposited data

Results flagged for a closer look

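For the 11 segments described individually, a single library stood apart from the other 4 of its group by the gap test for single values (Dixon, 95%) in the groups given here, in each by a high share. Of these 11 segments, 8 led a library and so were chosen for a high share. The usual chance rate of such flags, about 1 in 20 groups, does not apply to them, and the values are a description.

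Trbv17 reached 89.7% in Combination 5 and 18.9% in Control 5. Trbv3 reached 46.2% in Combination 4, 30.1% in Control 4 and 25.2% in ABL503 5. Trbv4 reached 30.8% in Combination 3 and 13.5% in Pembrolizumab 5, and Trbv13-2 reached 5.83% in Combination 3. Trbv1 reached 18.3% in Pembrolizumab 4 and 18.9% in ABL503 3. Trbv12-1 reached 44.2% in Pembrolizumab 3, and Trbv31 reached 15.4% in Control 3. Each of the 4 groups, Control included, held at least 1 such library. Trbv13-1 in the Combination was not among them, since 2 libraries were high together.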

How the results depend on the processing

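All 120 group means and differences in evenness, leading share and summed level moved by less than 1 SD when 1 library was left out. This was fixed in advance, because leaving out 1 of 5 values cannot move a mean that far. Differences smaller than their SD did change sign in some of these cases. ABL503 minus Control ran from -0.0189 to 0.00219 in evenness and from -0.329 to 4.26 points in leading share. Pembrolizumab minus Control ran from -1.38 to 3.85 points in leading share. Among 129 group means and differences under other settings none reversed, but only differences from Control larger than their SD could count as reversed. Of these 129 values, 113 moved by less than 1 SD. The 16 others were evenness means, in the order Control, Pembrolizumab, ABL503: 0.774, 0.713 and 0.765 with only segments past the filter, 0.753, 0.693 and 0.745 with values under 1 FPKM set to 0, 0.777, 0.718 and 0.771 divided by the segments above 0 in each library, and 0.770, 0.709 and 0.761 with GENCODE V genes only, an alternative chosen after seeing the data. Control and ABL503 had 0.751 and 0.748 with RefSeq V segments only, and 0.666 and 0.658 with near copies summed. Where only symbols with very low values left the count, the shift is mainly that of the divisor, the logarithm of the number of symbols, and not of the shares. For the Combination against Control the 4 called segments became 2 with no filter and 7 at an adjusted p under 0.1. For the Combination against ABL503 the 1 became 0 with no filter, 0 with the Trbc covariate, 2 with array weights and 4 at an adjusted p under 0.1. For Pembrolizumab against Control the 0 became 1 with only the groups compared. Leaving out 1 library gave 2 to 6 calls for the Combination against Control (2 without Combination 2), 0 to 2 against ABL503 (0 without ABL503 3 or Combination 5, 2 without Pembrolizumab 3), 0 to 1 against Pembrolizumab (1 without Pembrolizumab 3) and 0 to 1 for Pembrolizumab against Control (1 without Pembrolizumab 4). The cause of these changed counts was not tested, except that no filter brings more genes into the adjustment. With the replicate number as a block, the Combination against ABL503 had 2 calls. The numbers do not pair the libraries: 30 same-numbered pairs correlated at -0.146 to 0.107 (median 0.026), and 5 of 20 libraries correlated best with their own number. Depth is unknown, and low segments cannot be bounded.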

Other observations

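The gamma constant gene Tcrg-C1 stood at 167 FPKM in Combination 3, the library led by Trbv4, and at most 17.1 FPKM in any other library. In the same library Tcrg-C2 stood at 56.0 FPKM, beside 56.3 in Combination 4 and up to 62.4 in the other groups, and Trdc of the delta chain at 3.47, within the range of 0 to 8.28 over all libraries.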
